A study of Mus musculus with 4 samples.

Results

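The genes described here are 38 mouse genes of the interferon response and of antigen presentation, picked by name: transcription factors, RNA sensors, antiviral effectors, regulators, GTPases and the class I presentation machinery. Of these, 37 had at least 1 probe on the arrays, out of 27398 gene names in all, and they were covered by 62 of 41174 probes. Ifi27 had no probe under that name. The study used C2C12, an established line of mouse myoblasts that form myotubes in low serum. It compared cells that had differentiated for 6 days with recombinant human follistatin 288, added at 200 ng/ml every 24 h, with untreated cells of the same line at the same day. Follistatin is a secreted protein that binds activins and myostatin. The growth protocol gives 2% horse serum for differentiation and the sample source gives 10%. The labels name 4 biological replicates, each 1 two-colour array with the follistatin RNA in Cy3 and the untreated RNA in Cy5. The labels call every array a dye swap, yet give the same dyes for all 4, so a dye effect and a treatment effect cannot be told apart. The signs below rest on those labels, and an array whose dyes were in fact reversed would have every sign turned. Between pairs of arrays, Pearson's r ran from 0.016 to 0.84 over all genes and from -0.38 to 0.68 over the 33 tested members. Whether the dyes of an array were reversed was not tested. Replicates 1 to 3 lay on 1 slide and replicate 4 on another.

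Interferons are secreted cytokines that cells make when they sense viral RNA or DNA. Type I interferon acts through a complex that holds STAT2 and IRF9 and binds the interferon-stimulated response element (ISRE) of target genes, and interferon gamma acts at gamma-activated sites. The targets include proteins that block viral replication and the proteasome subunits, peptide transporter and class I molecules that display peptides to CD8 T cells.

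The promoters of the members have sequence in common. The core of the ISRE was searched on both strands as GAAA, any 2 bases and GAAA again, in the 300 bases from 250 before to 50 after the start site of each RefSeq gene (GRCm38.p6). Of the 38 members 31 had a promoter in that table, and 16 of the 31 (51.6%) held the core in at least 1 promoter, against 3.99% of all 27025 genes. A gamma-activated site, TTC and GAA with any 3 bases between them, was found in 10 of 31 (32.3%), against 9.55% of all genes. Matches to the core can overlap, and a match is a description of the letters. Stretches upstream of the start site are shown for members whose values are described below, on the strand of the gene, with the matches in capitals.
B2m, chr2:122147523-122147582, plus strand: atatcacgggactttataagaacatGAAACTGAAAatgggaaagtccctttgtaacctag
Gbp2, chr3:142620579-142620638, plus strand: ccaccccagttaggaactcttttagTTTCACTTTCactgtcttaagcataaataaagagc
Ifit1, chr19:34640760-34640838, plus strand: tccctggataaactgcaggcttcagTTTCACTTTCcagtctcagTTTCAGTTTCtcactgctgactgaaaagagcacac
Ifit3, chr19:34583348-34583441, plus strand: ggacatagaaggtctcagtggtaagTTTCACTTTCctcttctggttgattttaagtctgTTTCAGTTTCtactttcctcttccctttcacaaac
Isg15, chr4:156200850-156200921, minus strand: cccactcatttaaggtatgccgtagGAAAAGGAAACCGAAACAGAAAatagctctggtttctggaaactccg
Bst2, chr8:71537562-71537627, minus strand: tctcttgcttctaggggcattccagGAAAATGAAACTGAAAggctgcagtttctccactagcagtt
In Isg15 3 overlapping matches began 78 to 66 bases before the start site. In Ifit1 the matches began 104 and 85 bases before it and in Ifit3 156 and 122 bases before it, both on the other strand. B2m and Gbp2 held 1 match each.

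Over the whole arrays, 61.1% to 69.4% of spots were well above background in a channel and 0 were saturated. A probe entered the test with that mark in either channel on 3 or more of the 4 arrays (the same channel each time), leaving 27017 probes of 17848 genes, and 33 member genes with 49 probes. The values below are log2 ratios of follistatin over untreated after background correction and loess normalization, and a gene is given by its brightest tested probe. The SE beside a mean is that of the limma fit. It is moderated by the spread of all tested probes, so it does not come from the 4 values of the gene alone. Replicates 2 and 3 resembled each other far more than any other pair. Their ratios correlated with Pearson's r 0.84 over all genes, against 0.016 to 0.23 for the other 5 pairs, and whether they share cells or RNA is not given in the sources used here. All 10 myoblast and myotube markers were measured, while Ptprc, Adgre1 and Itgam of leukocytes and Pecam1, Cdh5 and Kdr of endothelium were not well above background on any array. Fewer cells of a type and less RNA per cell cannot be told apart in such RNA.

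Ordered by array, the members leaned one way on some arrays and the other way on others. On replicate 1 20 of the 33 tested members were lower with follistatin (60.6%, against 51.8% of all genes), and on replicate 4 24 were (72.7%, against 50.2%). On replicate 2 only 9 were lower (27.3%, against 54.7%) and on replicate 3 only 7 (21.2%, against 54.0%). The mean of the members minus the mean of all other genes was -0.14 on replicate 1, 0.17 on replicate 2, 0.45 on replicate 3 and -0.25 on replicate 4, or 0.059 ± 0.32 (SD, n = 4). That mean is smaller than its spread and turns negative, to -0.026, when replicates 2 and 3 are averaged to 1 sample, and to -0.072 without replicate 3.

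Across the 4 arrays, 0 of the 33 members passed an adjusted p of 0.05 in limma, and 0 of all 17848 genes did (0%). The smallest adjusted p of a member was 0.105, and 0.0991 was the smallest of all probes. At an unadjusted p under 0.05, 3 members were higher (B2m, Gbp2 and Eif2ak2) and 1 was lower (Irf9). The same threshold took 8.35% of all genes as higher and 11% as lower, so 3 and 1 of 33 lie near or below the background. With replicates 2 and 3 averaged, 1 member was higher and 1 lower at that threshold. Those 4 genes were also the members with 1 sign on every array, 3 positive (12.2% of all genes) and 1 negative (15.8% of all genes). By their means, 21 members were above 0 and 12 below (53.5% of all genes were below), with a median of 0.029 against -0.018 over all genes. The sign of the mean turned in 9 of the 33 members with replicates 2 and 3 averaged, and in 11 without replicate 3.

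**Figure D1:**
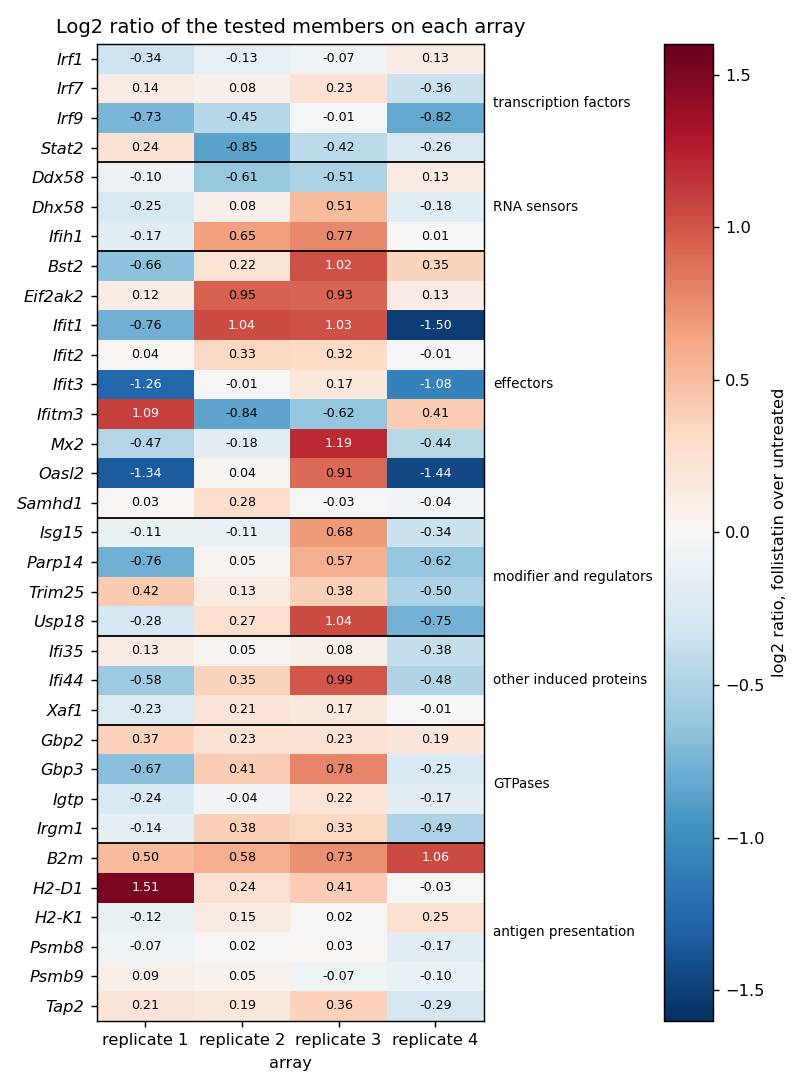
Log2 ratio of follistatin over untreated for each of the 33 tested member genes (rows, grouped by role) on each of the 4 replicate arrays (columns), by the brightest probe of each gene. B2m, Gbp2 and Eif2ak2 are positive and Irf9 is negative in all 4 columns, and most effectors change sign between columns.

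Single arrays held larger ratios. On replicate 3, 10 members were over 1.6-fold higher, against 6.42% of all genes, and 0 were over 1.6-fold lower, against 11.2%. On replicate 2, 2 members were that much higher (all genes 4.35%) and 2 lower (7.66%). On replicate 1, 5 were over 1.6-fold lower (all genes 5.53%) and 2 higher (6.64%), and on replicate 4 5 were lower (4.36%) and 1 higher (4.23%). The excess of high members on replicate 3 and that of low members on replicates 1 and 4 are thus opposite in direction.

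**Figure D2:**
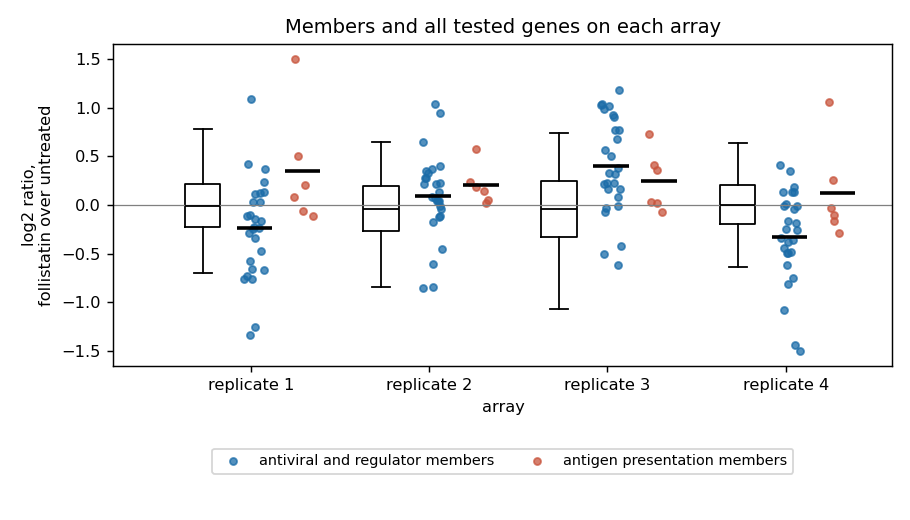
Log2 ratio of follistatin over untreated on each array for all 17848 tested genes (box: quartiles and median, whiskers: 5th to 95th percentile), the 27 antiviral and regulator members and the 6 antigen presentation members (points), with the mean of each member group as a thick bar. The antiviral mean lies below 0 on replicates 1 and 4 and above 0 on replicates 2 and 3.

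The transcription factors come first in the pathway. Irf9, the DNA-binding subunit of the complex with STAT2, was at -0.73, -0.45, -0.014 and -0.82 on replicates 1 to 4. It was lower on all 4 arrays, by next to nothing on replicate 3, with a mean of -0.50 (SE 0.16, limma adjusted p = 0.193). A second Irf9 probe, nearer the 5′ end of the transcript, was at -0.090, 0.21, 0.57 and -0.25, with a mean of 0.11, so the probes do not share a sign on replicates 2 and 3. Stat2, its partner, had a mean of -0.32 (SE 0.19) and was negative on 3 arrays. Irf1, a factor induced by interferon gamma, was at -0.10 (SE 0.11), and Irf7, which amplifies type I interferon production, at 0.021 (SE 0.13).

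The RNA sensors are helicases that detect viral RNA in the cytoplasm. Ifih1 (MDA5) was at -0.17, 0.65, 0.77 and 0.012 on replicates 1 to 4, with a mean of 0.32 (SE 0.19). Ddx58 (RIG-I) was at -0.099, -0.61, -0.51 and 0.13 by its brightest probe, with a mean of -0.27, and at 0.10, 0.32, 0.81 and -0.40 by another, with a mean of 0.21. These Ddx58 probes had opposite signs on every array. Dhx58 (LGP2), a regulator of both, had a mean of 0.039 (SE 0.15).

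Single antiviral effectors had the widest ranges of all members. Ifit1, which binds viral RNA lacking host cap marks, was at -0.76 on replicate 1, 1.04 on replicate 2, 1.03 on replicate 3 and -1.50 on replicate 4. It was high on the alike pair and low on the others, and its mean was -0.049 (SE 0.48). Oasl2, of the oligoadenylate synthetase family, was at -1.34, 0.044, 0.91 and -1.44, with a mean of -0.46 (SE 0.43). Ifit3, which binds and stabilizes IFIT1 in human cells, was at -1.26, -0.011, 0.17 and -1.08, with a mean of -0.55 (SE 0.28). Both genes were low on replicates 1 and 4 and near 0 on replicate 2. Mx2, a dynamin-like GTPase, was at -0.47, -0.18, 1.19 and -0.44, so that replicate 3 alone was positive.

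Other effectors followed other orders. Ifitm3, a membrane protein that blocks fusion of viruses with endosomes, was at 1.09, -0.84, -0.62 and 0.41, the reverse of Ifit1 in sign on every array, with a mean of 0.010 (SE 0.34). Bst2 (tetherin), which holds budding virions at the cell surface, was at -0.66, 0.22, 1.02 and 0.35, with a mean of 0.23 (SE 0.27). Bst2 was low on replicate 1 only. Eif2ak2 (PKR), the kinase that shuts down translation on sensing double-stranded RNA, was at 0.12, 0.95, 0.93 and 0.13, with a mean of 0.53 (SE 0.19, limma adjusted p = 0.231). It was positive on all arrays, and replicates 2 and 3 carried most of its mean. Ifit2, of the same family as Ifit1, had a mean of 0.17 (SE 0.11) and Samhd1, which depletes nucleotides, 0.061 (SE 0.098). Oas1a, Mx1 and Rsad2 (viperin) were not well above background on at least 3 arrays in either channel and were not tested.

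The intensities of the 2 channels were also compared for some members of wide range. Ifit1 had normalized log2 intensities of 8.16, 8.75, 8.69 and 6.83 in the follistatin RNA and 8.93, 7.71, 7.66 and 8.33 in the untreated RNA of replicates 1 to 4. Both channels moved: untreated cells were higher on replicates 1 and 4, and the ranges of the groups overlapped. For Mx2 the follistatin RNA ranged over 1.80 between arrays (7.40, 7.33, 8.72 and 6.93) and the untreated RNA over 0.50 (7.87, 7.51, 7.54 and 7.37). Usp18 had a follistatin range of 1.47 and an untreated range of 0.43. In Oasl2 those ranges were 2.15 and 1.20. Of the 33 tested members, 20 had a wider range in the follistatin RNA than in the untreated RNA. That count was not made over all genes, so it cannot be read as a trait of the members.

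**Figure D3:**
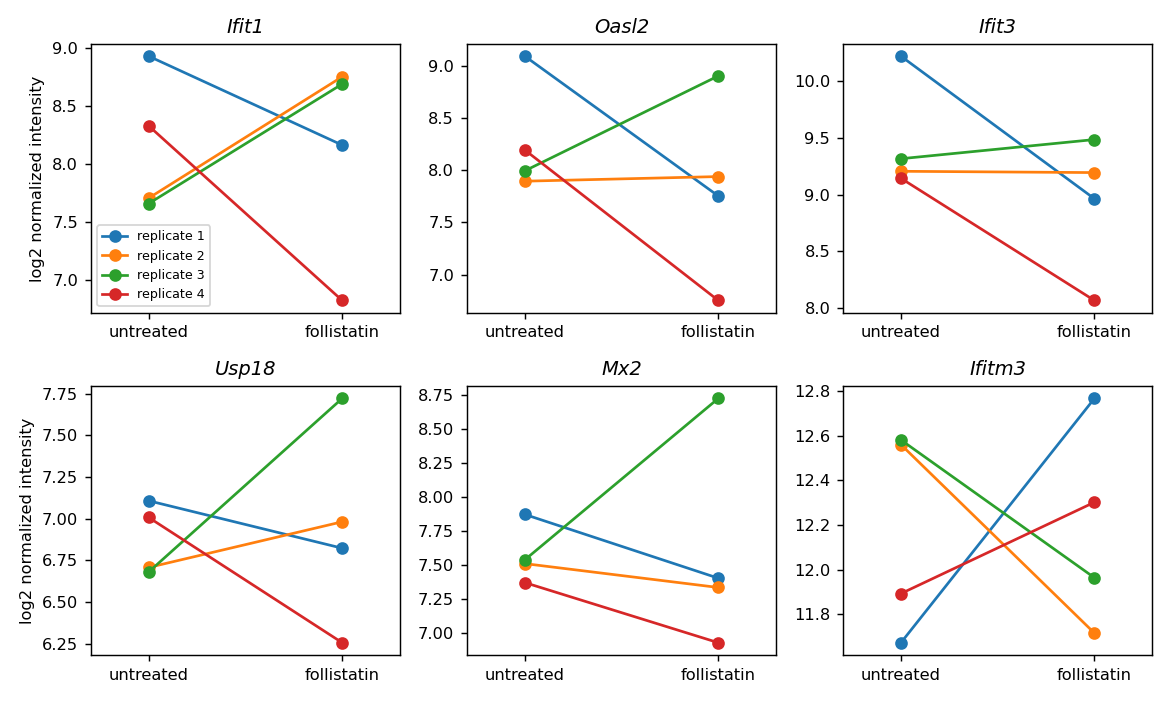
Normalized log2 intensity (loess, then equal average intensity across arrays) of 6 member genes in the untreated and the follistatin RNA, with a line joining the channels of each array. The lines of Ifit1 cross, rising on replicates 2 and 3 and falling on replicates 1 and 4, and those of Ifitm3 run the other way. Each panel has its own scale.

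The ubiquitin-like modifier and its regulators come next. Usp18, the protease that removes ISG15 from proteins and dampens interferon receptor signalling, was at -0.28, 0.27, 1.04 and -0.75, with a mean of 0.070 (SE 0.30). Isg15, the ubiquitin-like modifier itself, was at -0.11, -0.11, 0.68 and -0.34. Both were highest on replicate 3 and lowest on replicate 4. Trim25, a ubiquitin ligase that activates RIG-I, had a mean of 0.11 (SE 0.18). Parp14, a mono-ADP-ribosyltransferase, was at -0.76, 0.046, 0.57 and -0.62 by its brightest probe, with a mean of -0.19 (SE 0.24). A probe near the 5′ end of Parp14 was at -1.004, -0.42, -0.35 and -1.14, negative on every array, with a mean of -0.73 (SE 0.17, limma adjusted p = 0.135).

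Among the other induced proteins, Ifi44 was at -0.58, 0.35, 0.99 and -0.48, with a mean of 0.070 (SE 0.29). By that probe it had the signs of Usp18 and Ifit1 on every array. Its other tested probe was negative on every array, at -0.80, -0.033, -0.028 and -1.38, with a mean of -0.56, and the mean over both probes was -0.25. Ifi35 had a mean of -0.030 (SE 0.12) and the pro-apoptotic Xaf1 0.035 (SE 0.11). The GTPases guard against intracellular pathogens. Gbp2, a guanylate-binding protein, was at 0.37, 0.23, 0.23 and 0.19, the narrowest range of any tested member, with a mean of 0.26 (SE 0.086, limma adjusted p = 0.213). The mean of this dim probe depends on the background correction: it was 0.45 with a normexp offset of 0, 0.57 with processed signals and 0.58 with the authors' deposited table. Gbp3, of the same family, was at -0.67, 0.41, 0.78 and -0.25. Igtp and Irgm1, immunity-related GTPases, had means of -0.056 (SE 0.11) and 0.018 (SE 0.17).

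As a group, the 27 antiviral and regulator members lay -0.25, 0.15, 0.48 and -0.33 from all other genes on replicates 1 to 4, or 0.013 ± 0.37 (SD, n = 4). The mean turned to -0.088 with replicates 2 and 3 averaged. Across these 27 genes, ratios on replicates 1 and 4 correlated with Pearson's r 0.66, those on 2 and 3 with 0.69, and those on 1 and 3 with -0.50. Genes are not independent replicates, and the slide does not separate these pairs, since replicate 1 shares a slide with 2 and 3. The 14 tested members that hold the ISRE core had medians of -0.13, 0.22, 0.50 and -0.078, and the 14 without it -0.018, 0.10, 0.13 and -0.14. Over all 376 tested genes with the core the medians lay between -0.041 and 0.008.

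The muscle markers also differed by array. Their median was 0.81 on replicate 1, -0.29 on replicate 2, -0.44 on replicate 3 and -0.55 on replicate 4. Of the 10 markers 9, all but the myoblast factor Myf5, had their highest ratio on replicate 1. The same count was not made over all genes, so it cannot be read as a trait of the markers. Des, the muscle intermediate filament, was at 1.75, -0.057, -0.38 and -0.89, and Ckm, muscle creatine kinase, at 1.01, -0.78, -1.19 and -0.77. Myog, a factor of early differentiation, was negative on every array, at -0.12, -0.43, -0.50 and -0.49, and Myf5 was at 0.30, 1.12, 0.95 and -1.02. Replicate 1 thus stood highest in most markers, while replicates 1 and 4 were alike in the antiviral members. The part of differentiation in the ratios of the members was not tested.

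Of the 7 role groups, antigen presentation alone had a mean above that of all other genes on every array. Its mean lay 0.35, 0.26, 0.32 and 0.12 above, or 0.26 ± 0.10 (SD, n = 4), over 6 tested genes, and 0.25 with replicates 2 and 3 averaged. B2m and H2-D1 carried most of it, and the median of the 6 gene means was 0.098. On replicate 4, 4 of the 6 genes were lower and their median was -0.069, so the positive mean there rests on the B2m probe at 1.06. Tap2, a subunit of the peptide transporter, was at 0.21, 0.19, 0.36 and -0.29, with a mean of 0.12 (SE 0.13). Psmb8 and Psmb9, catalytic subunits of the immunoproteasome, were dim and near 0 in this normalization. Psmb8 was at -0.065, 0.021, 0.027 and -0.17 and Psmb9 at 0.085, 0.055, -0.071 and -0.10. From the processed signals Psmb9 was at 0.30, 0.60, 0.065 and 0.046 and Psmb8 at -0.23, 0.46, 0.10 and -0.28. Tap1, the other transporter subunit, was not well above background in the follistatin RNA of any array and was not tested.

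B2m, the light chain of class I molecules, was at 0.50, 0.58, 0.73 and 1.06 by its brightest probe. All arrays were positive, and the mean of 0.72 (SE 0.12, 1.65-fold) had the smallest p of any member, which did not pass the adjustment (limma adjusted p = 0.105). The other B2m probes did not show it. One was present as 10 spots per array and gave -0.24, -0.72, -0.58 and 1.23, with an SD between spots of 0.037 to 0.11, so spot noise is far smaller than its swing between arrays. It lies at chr2:121978525-121978581 (mm9), next to the brightest probe at chr2:121978401-121978460 on the same transcript. The third probe, designed on another transcript at chr2:121974599-121974658, was at 0.21, -0.78, -0.97 and -0.63. The direction for B2m therefore depends on the probe.

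The class I heavy chains present the peptide with B2m, and here too the probe mattered. The probes that carry the comparison are shown 5′ to 3′ with their positions in mm9, where a span longer than the 60 bases of a probe means that it crosses an intron.
H2-K1 A_52_P474242, chr17:34136478-34136724, minus strand: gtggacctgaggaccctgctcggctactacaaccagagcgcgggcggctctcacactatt
H2-K1 A_52_P50496, chr17:34136288-34136347, minus strand: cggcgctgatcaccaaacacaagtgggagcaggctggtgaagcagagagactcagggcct
H2-D1 A_52_P313279, chr17:35403132-35403191, plus strand: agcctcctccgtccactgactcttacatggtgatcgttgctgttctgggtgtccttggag
H2-D1 A_51_P496996, chr17:35403437-35403669, plus strand: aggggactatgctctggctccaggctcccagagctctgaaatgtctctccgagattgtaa
All 4 lie in coding sequence. The first H2-K1 probe was at 1.37, 0.44, 0.58 and 0.21, and the second at 1.91, 0.29, 0.38 and 0.075. The first H2-D1 probe was at 1.51, 0.24, 0.41 and -0.034, and the second at 1.51, 0.23, 0.40 and 0.036. These 4 probes were thus high on replicate 1, above 0 on 2 and 3 and close to 0 on replicate 4 apart from the first H2-K1 probe. For the first H2-D1 probe the follistatin RNA had normalized log2 intensities of 13.37, 13.05, 13.33 and 13.03, and the untreated RNA 11.86, 12.81, 12.92 and 13.06. Its high ratio on replicate 1 thus went with a low untreated channel.

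Probes at the 3′ end of H2-K1 read otherwise. A_51_P198434, the brightest and present as 10 spots, starts at base 1488 of its transcript and was at -0.12, 0.15, 0.021 and 0.25, with a mean of 0.076 (SE 0.10). A_51_P190499, designed on another H2-K1 transcript, was at -0.14, -0.042, -0.11 and 0.29. They share the run tgacctagggctgatttcttgttaa and differed from each other by a mean of 0.095 over the arrays. From the coding H2-K1 probes they differed by 0.60 to 0.77. The coding probes shared runs of at most 9 bases with any other class I probe compared, so they are different sequences, and whether they hybridise to RNA of the near-identical class I genes was not tested. For H2-D1 the mean was 0.53 (SE 0.26, limma adjusted p = 0.334), and 0.20 without replicate 1.

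**Figure D4:**
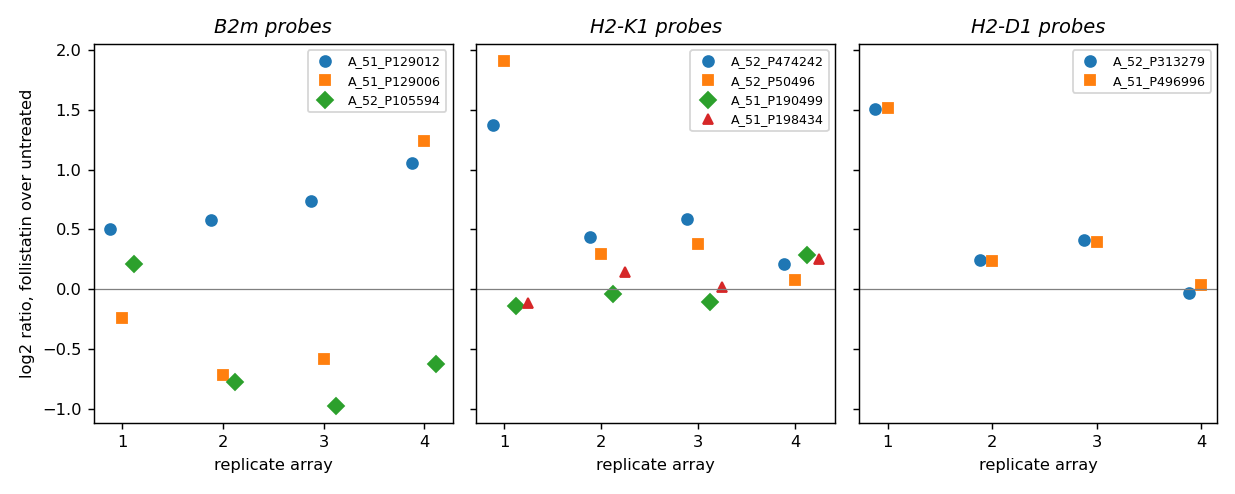
Log2 ratio of follistatin over untreated on each replicate array for every tested probe of B2m, H2-K1 and H2-D1 (1 symbol per probe, points of an array set side by side). The B2m probes differ in sign on every array, the coding H2-K1 probes (A_52_P474242 and A_52_P50496) lie with the H2-D1 probes, and the 3′ H2-K1 probes lie near 0.

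Some other class I genes were also high on replicate 1 alone. H2-Q4 was at 1.20 on replicate 1, H2-Q7 at 1.26, H2-Q10 at 1.16 and H2-T23 at 1.12, and on the other arrays these 4 lay between -0.040 and 0.40. The probes of H2-Q7 and H2-T23 shared a run of 28 bases, and whether they read the same RNA was not tested. All 4 genes were named after their values were seen, and other class I genes differed from them. On replicate 1 H2-M3 was at -0.92, H2-T22 at -0.42 and H2-T24 at 0.034. Of the 25 tested genes of a wider antigen processing list, 0 passed, with a median of -0.039. At an unadjusted p under 0.05, 0 were higher (all genes 8.35%) and 3 lower (all genes 11%). The lower ones were Psmb6, a constitutive proteasome subunit, at -0.74 (SE 0.11), and the proteasome activators Psme2 at -0.42 (SE 0.13) and Psme3 at -0.33 (SE 0.12). H2-M3, a class I molecule that presents formylated peptides, was at -0.38 (SE 0.16).

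Upstream of the members, 30 of 36 listed interferon, receptor and signalling genes were tested and 0 passed, with a median of -0.073. At an unadjusted p under 0.05, 1 was higher (all genes 8.35%) and 7 were lower (all genes 11%). Irf2bp2, a corepressor, was at -0.59 (SE 0.092) and Ptpn6 (SHP-1), a phosphatase that restrains JAK signalling, at -0.49 (SE 0.10). Socs1, a feedback inhibitor of the interferon receptors, was at -0.51, -0.98, -0.98 and -0.25, negative on every array, with a mean of -0.68 (SE 0.16, limma adjusted p = 0.134). Trim56, a ubiquitin ligase, was at 0.54 (SE 0.14). Ifnb1, the interferon beta gene, was not well above background on any array. Ifng, the interferon gamma gene, was well above background on all 4 by a dim probe (mean log2 intensity 6.39). Its mean ratio was 0.11 (SE 0.14). Of 44 tested other interferon-induced genes 0 passed, with a median of 0.12. At an unadjusted p under 0.05, 2 were higher (all genes 8.35%) and 2 lower (all genes 11%). Adar, which edits double-stranded RNA, was at 0.66 (SE 0.16) and Ifi47, an immunity-related GTPase, at 0.25 (SE 0.083), while Sp110 was at -0.55 (SE 0.16) and Tor3a at -0.40 (SE 0.11).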

How the data were processed

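RNA of C2C12 cells was hybridised to 4 two-colour Agilent arrays. Per the file headers the deposited scanner files hold spot intensity values from Agilent Feature Extraction, version 10.7.3.1 for replicates 1 to 3 and 10.10.1.1 for replicate 4, and the authors' LogRatio column is log10 of Cy5 over Cy3. The deposited table holds a log2 ratio per probe, which matched log2 of the processed Cy3 over Cy5 signals (slope 1, medians -0.16, 0.17, 0.13 and 0.11). Its values are therefore follistatin over untreated and not centred on 0.

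From the median signals and local backgrounds, log2 ratios were computed in R 4.3.3 with limma 3.58.1 (normexp with offset 50, loess within arrays with span 0.3 and 4 iterations, control spots at weight 0). Outlier spots were left out and spots of a probe averaged. Ratios were tested against 0 with lmFit and eBayes, adjusted by Benjamini-Hochberg over all 27017 probes. The step was tested on simulated data. Gene names, probe positions (mm9) and sequences came from the file of replicate 4, joined by spot number. Array number limits the precision, and p-values measure only the spread between these samples. The members, lists, motifs and tests were chosen with earlier results of these data known. Every member is named; array values are given for members of 1 sign on all arrays, the 8 of widest range and the antigen presentation members, and some other values were chosen after they were seen. In the other lists the 4 genes of smallest p are named.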

Additional observations from a re-analysis of the deposited data

Results flagged for a closer look

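Of 36 results tested for a single distant array (33 member genes and 3 group shifts), 1 stood out. Ifi35, an interferon-induced protein, had a log2 ratio of -0.38 on replicate 4, whereas replicates 1 to 3 gave 0.046 to 0.13. Chance alone marks about 1 in 20 such groups, and replicate 4 is the only array on its slide, so array and slide cannot be told apart.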

How the results depend on the processing

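No member passed an adjusted p of 0.05 in 18 of the 19 alternatives that allow a test. These 19 are not all separate. The slide of replicates 1 to 3 alone is the same as leaving out replicate 4, and the authors' table matched the processed signals. With limma's array weights (0.53, 2.65, 1.62 and 0.44 for replicates 1 to 4) 3 members and 3431 of all genes passed: B2m at 0.66 (adjusted p = 0.0237), Eif2ak2 at 0.79 (adjusted p = 0.0298) and Ddx58 at -0.46 (adjusted p = 0.0472). Those weights favour the 2 arrays that resemble each other. Of all genes, 2 passed with the processed signals, 2 with the authors' table and 63 with scaling between arrays. Members higher at an unadjusted p under 0.05 numbered 5 with array weights, 1 with the methods' t-test and 1 with replicates 2 and 3 averaged, and 1 to 4 when single replicates were left out. In either direction those 3 settings took 39.4%, 14.4% and 11.1% of all genes, against 8, 2 and 2 of 33 members. Members lower numbered 3 with array weights, 0 with means over probes, 0 with median centring and 0 to 4 when single replicates were left out. In either direction, 3 of 33 members with means over probes stood against 18.7% of all genes, and 2 with median centring against 18.6%. With replicates 1, 2, 3 and 4 left out in turn, 4, 1, 5 and 5 members stood against 19.2%, 11.6%, 9.59% and 26.1%. The shift of the antigen presentation members was 0.12 on slide 2 alone, 0.22 with median centring and 0.36 with processed signals. With means over probes it was 0.20, and the mean of B2m was then 0.034. The shift of the antiviral members ran from -0.14 without replicate 3 to 0.13 without replicate 4, and was -0.029 with scaling and 0.057 with processed signals. That of all members ran from -0.072 to 0.16 over the same omissions and was 0.11 with processed signals. Blocking on slide changed no call. The cause of these differences was not tested. An alternative from mean spot signals was not run, because mean signals were at hand for replicate 4 only.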

Other observations

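Among the 11 pairs of tested probes named for the same gene outside the class I and B2m genes, 3 pairs had opposite signs on all 4 arrays. They were the pair of Irf1, the pair of Ifit2 and 1 pair of Ddx58. The second Irf1 probe was at 0.61, 0.37, 0.76 and -0.31, against -0.34, -0.13, -0.072 and 0.13 for the brightest.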
